A study of Homo sapiens with 16 samples.

Results

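The genes described here are 10 markers of the mesenchymal and fibroblast-like state: LUM, DCN, COL1A1, COL1A2, COL3A1, FN1, PDGFRB, VIM, YAP1 and PRRX1. They were taken by gene name from a table of 58735 genes, in which each name had 1 row. They were measured by RNA sequencing of poly(A) RNA in 16 libraries of IMR32, a human neuroblastoma cell line labelled as wild type. Cells were treated for 24 h with DMSO, the vehicle, with 1.25 µM indisulam, with 4 µM alectinib, or with both drugs at those doses, and each of these groups had 4 libraries. Indisulam recruits the splicing factor RBM39 to the DCAF15 ubiquitin ligase for degradation, and alectinib inhibits the receptor tyrosine kinase ALK. Separate cultures are not named in the labels, which only number the libraries, so p-values cover the spread between libraries and that spread may be technical. All results are from 1 cell line.

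Neuroblastoma cells are known in an adrenergic state, kept by factors such as HAND2 and GATA3, and in a mesenchymal state that resembles neural crest derived stroma. The mesenchymal state is marked by vimentin filaments, fibronectin and fibrillar collagens, by PDGF receptors, and by regulators such as PRRX1 and YAP1. Lumican and decorin are small leucine-rich proteoglycans that bind collagen fibrils and are typical products of fibroblasts.

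Total counts per library ran from 55.1 to 63.7 M (1e6 counts), apart from alectinib replicate 1 with 90.2 M. Levels are given as CPM, counts per 1e6 counts after TMM scaling, a correction for library composition, and 1 count was worth 0.0106 to 0.018 CPM. Of the adrenergic markers, HAND2 had a mean of 725 CPM in DMSO and 480 in the combination, and GATA3 had 263 and 267. Of 7 fibroblast markers outside the 10 genes, FAP had 0 counts in all 16 libraries and POSTN had 13 in total. The others were THY1 (52.2 CPM in DMSO), PDGFRA (33.1), ACTA2 (3.37), TAGLN (2.69) and S100A4 (0.695). THY1 fell with alectinib (-0.28 ± 0.09 on the log2 scale) and in the combination (-0.37 ± 0.09), and PDGFRA fell in all 3 drug groups. ACTA2, the smooth muscle actin, rose with indisulam (0.48 ± 0.16), alectinib (0.54 ± 0.16) and in the combination (1.52 ± 0.16), where it reached 9.67 CPM, and TAGLN rose with alectinib (0.65 ± 0.15). With FAP, POSTN and PRRX1 at or near 0, the name fibroblast-like is used here for the gene list and not for the cells. The summed level of 6 Schwann cell markers was 3.79 to 6.41 CPM in DMSO, 7.07 to 9.28 in indisulam, 6.41 to 8.22 in alectinib and 10.2 to 12.3 in the combination, with CDH19 at 4 counts in all libraries together. Markers of endothelial and of epithelial cells summed to between 0.248 and 0.889 CPM per list and library. The part of these shifts in the results below was not tested. Fewer cells of a type and less RNA per cell cannot be told apart in such bulk samples.

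A RefSeq promoter (250 bases before to 50 bases after the start of transcription, GRCh38.p14) was matched by symbol for 5 of the 10 genes: FN1, PDGFRB, VIM, YAP1 and PRRX1. LUM, DCN, COL1A1, COL1A2 and COL3A1 are named only. The promoters of PDGFRB, FN1 and VIM are shown because PDGFRB and VIM fell in every drug group and FN1 had the only called interaction. The interaction is the departure of the response to both drugs from the sum of the single-drug responses. It was called for 1 of 8 tested members, beside 13.5% of all tested genes, and was lost in some fits without 1 library. The other members were not shown to follow that sum. Each is written 5′ to 3′ along the gene's strand, with matches to the motifs searched in capitals.
PDGFRB (chr5:150155796-150156095, minus strand): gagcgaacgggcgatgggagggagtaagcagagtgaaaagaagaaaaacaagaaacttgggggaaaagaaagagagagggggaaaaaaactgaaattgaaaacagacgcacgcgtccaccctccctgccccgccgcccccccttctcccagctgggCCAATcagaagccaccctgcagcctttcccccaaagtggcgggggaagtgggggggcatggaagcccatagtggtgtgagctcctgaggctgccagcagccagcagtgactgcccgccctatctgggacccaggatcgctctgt
FN1 (chr2:215436019-215436318, minus strand): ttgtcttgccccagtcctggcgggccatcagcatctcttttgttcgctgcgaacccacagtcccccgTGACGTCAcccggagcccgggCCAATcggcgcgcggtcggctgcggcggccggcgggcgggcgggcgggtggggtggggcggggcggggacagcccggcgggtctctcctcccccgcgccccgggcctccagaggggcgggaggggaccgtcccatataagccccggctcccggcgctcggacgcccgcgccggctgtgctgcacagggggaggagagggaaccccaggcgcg
VIM (chr10:17227991-17228290, plus strand): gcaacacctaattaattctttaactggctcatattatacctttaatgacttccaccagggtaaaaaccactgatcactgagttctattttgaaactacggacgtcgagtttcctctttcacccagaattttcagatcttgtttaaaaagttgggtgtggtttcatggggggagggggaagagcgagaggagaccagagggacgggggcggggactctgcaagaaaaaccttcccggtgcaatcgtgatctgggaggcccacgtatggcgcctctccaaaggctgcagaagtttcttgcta

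Motifs were searched on both strands. The motif bound by TEAD factors was spelled GGAATG, and that bound by AP-1 was spelled TGANTCA. The cAMP response element was spelled TGACGTCA, and the TATA box was spelled TATAAA. The last motif was the box with the letters CCAAT, and no match overlapped another. The CCAAT box stood 94 bases before the start of PDGFRB, 162 before FN1, and 157 and 89 before PRRX1, and it is found in 34.6% of the 35116 promoters of this length. FN1 also held the cAMP response element, 183 bases before its start, which occurs in 1.85% of promoters. The promoter of YAP1, the coactivator of TEAD factors, held the TEAD motif 162 bases before its start, a motif present in 14.0% of promoters. None of the 5 motifs was in the VIM window. The promoter of FN1 had 76.7% G and C and that of VIM 48.0%, beside a median of 58.7% over all promoters. Such matches describe the letters of the window and are not evidence of a bound factor.

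In DMSO the members spanned a wide range of levels per exonic length. VIM was highest at 17.8 ± 0.471 CPM per kb (SD, n = 4), above 83.9% of 14728 tested protein-coding genes on this scale. PDGFRB followed at 3.43 ± 0.222 CPM per kb, above 44.5% of them. FN1 stood at 1.69 ± 0.119, LUM at 1.17 ± 0.0934, COL1A1 at 0.573 ± 0.119, COL3A1 at 0.278 ± 0.0369 and YAP1 at 0.209 ± 0.0528 CPM per kb. DCN was at only 0.012 ± 0.00589 CPM per kb, above 0.713% of the tested protein-coding genes. In this order the library values of COL3A1 and YAP1 overlapped, as did those of DCN and COL1A2, while each of the other neighbours from VIM to DCN was separated from the next.

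COL1A2 and PRRX1 were near the limit of detection and did not pass the expression filter. COL1A2 codes for the partner of COL1A1 in type I collagen and had 27 counts in all 16 libraries. Its counts in replicates 1 to 4 were 2, 4, 0 and 2 in DMSO, 0, 2, 0 and 2 in indisulam, 2, 0, 0 and 2 in alectinib, and 0, 4, 0 and 7 in the combination, so the groups overlapped. PRRX1, a homeobox factor that drives the mesenchymal state in neuroblastoma cells, had 1 count, in indisulam replicate 4. A library with 0 counts allows up to 3 counts, which corresponds to 0.0319 to 0.0541 CPM and covers counting error only.

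**Figure D1:**
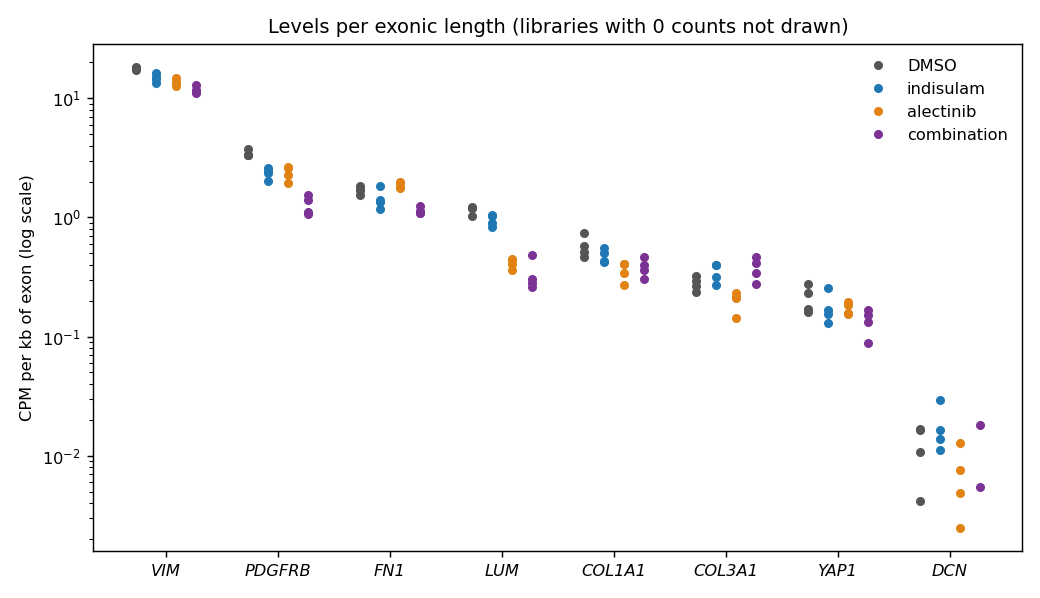
Level of each of 8 genes per kb of exon (CPM per kb, log axis), with 1 point per library and colours for the 4 treatments; libraries with 0 counts are not drawn. VIM lies near 10 to 20 CPM per kb in every group and DCN below 0.04, while LUM moves from above COL1A1 in DMSO to beside it in alectinib and the combination.

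The order changed with treatment. In the combination LUM, at 0.333 ± 0.103 CPM per kb, stood below COL1A1 (0.386 ± 0.0681) and COL3A1 (0.375 ± 0.0806), although the values of these 3 genes overlapped. PDGFRB (1.28 ± 0.227 CPM per kb) and FN1 (1.14 ± 0.0753) overlapped there as well, whereas they were separate in DMSO. VIM remained highest in each group, with 14.8 ± 1.12 CPM per kb with indisulam, 13.6 ± 0.893 with alectinib and 11.8 ± 0.823 with both drugs.

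Of the 8 genes that passed the filter, PDGFRB and VIM fell with indisulam. LUM, COL1A1, PDGFRB and VIM fell with alectinib. Those 4 genes, FN1 and YAP1 fell in the combination, and no member rose against DMSO, although COL3A1 in the combination lay close to the threshold and passed it under 8 of 24 alternatives. A gene was called where edgeR's quasi-likelihood test, with Benjamini-Hochberg adjustment over all 22433 tested genes, gave an adjusted p below 0.05. The counts have to be read against a broad response. With indisulam 2 of 8 fell, where 24.8% of all tested genes fell, 23% rose and 47.8% changed in either direction. With alectinib 4 of 8 fell, where 12.3% of all genes fell, 9.99% rose and 22.3% changed. In the combination 6 of 8 fell, where 30.6% of all genes fell, 29.7% rose and 60.3% changed. The median log2 change of the 8 was -0.26 with indisulam, -0.51 with alectinib and -0.62 with both, and over all tested genes it was -0.01, 0.01 and 0.01. DCN passed the filter with 131 counts in all.

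These 3 comparisons share the DMSO libraries and are not independent of each other. Of all genes called in alectinib, 44.8% were higher, and under upper-quartile scaling 64.0% were. The same 4 members were called lower with alectinib under both scalings. Groups did not overlap for 2 members with indisulam, 5 with alectinib and 4 with both drugs against DMSO, beside 44%, 26.4% and 52.7% of all tested genes.

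**Figure D2:**
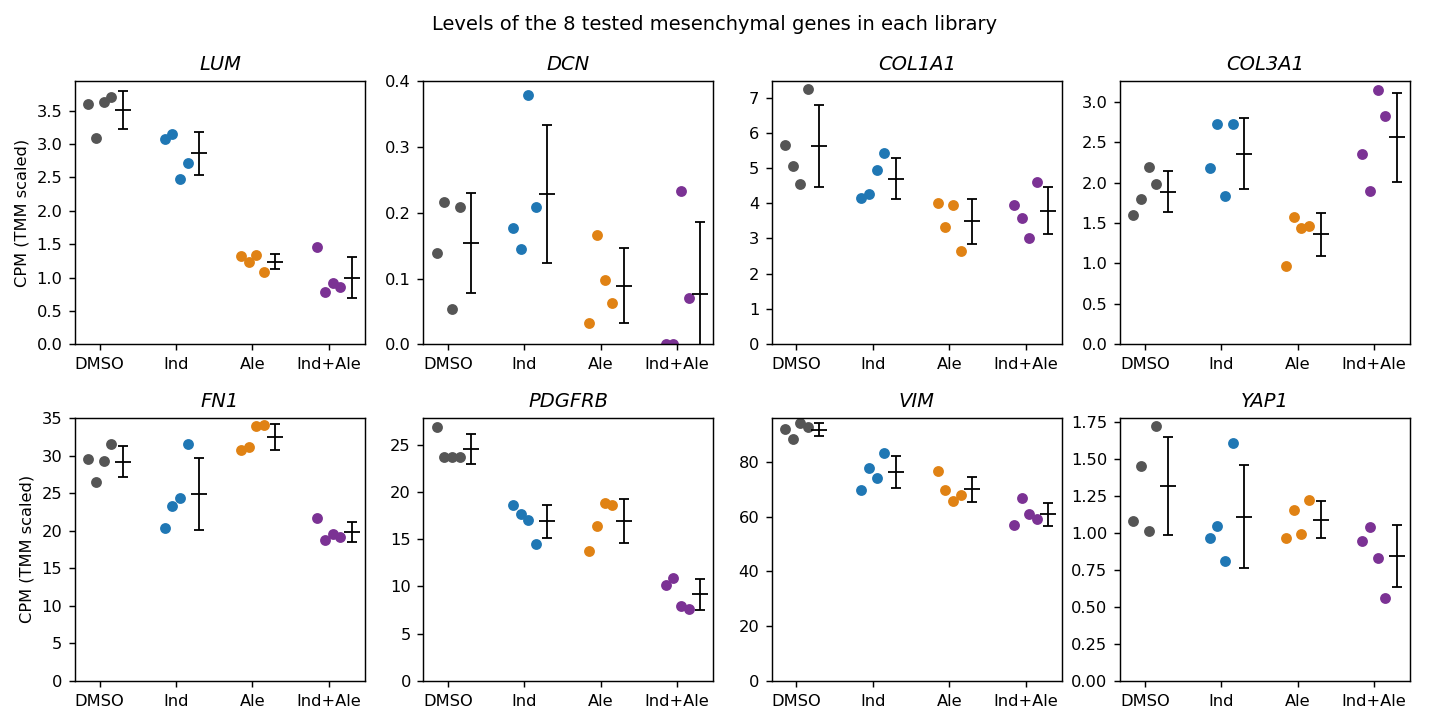
Level of each of the 8 tested genes in CPM (linear axes from 0), with 1 point per library and the mean ± SD (n = 4) beside each group of DMSO, indisulam (Ind), alectinib (Ale) and combination (Ind+Ale). PDGFRB steps down from 24.5 ± 1.59 CPM in DMSO to 9.14 ± 1.62 in the combination, and LUM drops in both groups that received alectinib.

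LUM (ENSG00000139329, GRCh38 chromosome 12, 91102629 to 91111831, minus strand) codes for lumican, a keratan sulfate proteoglycan that regulates collagen fibril assembly. Its level in replicates 1 to 4 was 3.61, 3.09, 3.63 and 3.71 CPM in DMSO and 3.08, 3.15, 2.48 and 2.72 in indisulam. In alectinib it was 1.33, 1.23, 1.33 and 1.09 CPM, and in the combination 1.46, 0.779, 0.916 and 0.855. All 8 libraries that received alectinib were below all 8 that did not. The log2 change was -1.49 ± 0.18 (SE, adjusted p = 2.41e-06) in alectinib, which left 35.5% of the DMSO level, and -1.81 ± 0.18 (adjusted p = 8.43e-09) in the combination, which left 28.6%. Indisulam alone gave -0.30 ± 0.17, which did not pass (adjusted p = 0.158). LUM was lower in alectinib than in indisulam, with indisulam 1.20 ± 0.18 above alectinib on the log2 scale (adjusted p = 5.98e-06). The combination was lower than indisulam, with a log2 difference of -1.51 ± 0.18 (adjusted p = 6.55e-07). Against alectinib the combination was at -0.31 ± 0.19 (adjusted p = 0.161), but without combination replicate 1, its highest library, the difference was -0.55 and passed (adjusted p = 0.0111). The interaction was -0.02 ± 0.25, with an approximate 95% interval of -0.50 to 0.47.

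DCN (ENSG00000011465, chromosome 12, 91140484 to 91183123, minus strand), which codes for decorin, lies next to LUM on the same strand. Its counts were 8, 12, 3 and 12 in DMSO, 11, 8, 23 and 13 in indisulam, 3, 10, 6 and 4 in alectinib and 0, 0, 14 and 4 in the combination. The ranges of all groups overlapped and no comparison was called. The log2 values against DMSO were 0.56 ± 0.71, -0.83 ± 0.77 and -0.99 ± 0.79 in indisulam, alectinib and combination. The combination values depended on replicate 3. Without it the log2 change was -2.62 against DMSO (adjusted p = 0.0193) and -3.18 against indisulam (adjusted p = 0.00825), in place of -0.99 and -1.54. Indisulam was at 1.38 ± 0.74 against alectinib (adjusted p = 0.129). That difference passed when only these groups were fitted (1.41, adjusted p = 0.0386). At this depth a change of DCN was not resolved.

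COL1A1 (ENSG00000108821, chromosome 17, 50183289 to 50201632, minus strand) codes for the main chain of type I collagen, the major fibrillar collagen of connective tissue. It was at 5.66, 5.05, 4.56 and 7.24 CPM in DMSO, and at 4.16, 4.27, 4.96 and 5.41 in indisulam. Alectinib libraries had 4.01, 3.33, 3.96 and 2.66 CPM and combination libraries 3.95, 3.58, 3.01 and 4.61. Alectinib was entirely below DMSO, and the highest combination library just exceeded the lowest DMSO library. COL1A1 fell with a log2 change of -0.69 ± 0.17 (adjusted p = 0.00398) in alectinib and one of -0.57 ± 0.17 (adjusted p = 0.00464) in the combination, and was at -0.26 ± 0.16 in indisulam (adjusted p = 0.202). Indisulam was above alectinib by 0.43 ± 0.17 (adjusted p = 0.0354). That call was lost when indisulam replicate 3 or 4 or alectinib replicate 2 or 4 was left out (adjusted p = 0.0738, 0.109, 0.0733 and 0.14).

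COL3A1 (ENSG00000168542, chromosome 2, 188974320 to 189012746, plus strand) codes for type III collagen, which forms fibrils together with type I. Its levels were 1.60, 1.80, 2.19 and 1.98 CPM in DMSO, 2.18, 2.72, 1.83 and 2.72 in indisulam, 0.968, 1.57, 1.43 and 1.46 in alectinib and 2.35, 1.89, 3.15 and 2.83 in the combination. Every alectinib library was below every library of the other groups. No comparison with DMSO passed, with 0.32 ± 0.19 in indisulam (adjusted p = 0.187), -0.49 ± 0.20 in alectinib (adjusted p = 0.0819) and 0.43 ± 0.19 in the combination (adjusted p = 0.0582). Indisulam was above alectinib by 0.81 ± 0.20 (adjusted p = 0.00155), and the combination was above alectinib by 0.92 ± 0.20 (adjusted p = 0.000336). The value in the combination against DMSO lay close to the threshold. The alternatives that called it higher included upper-quartile scaling (0.56, adjusted p = 0.0166), RLE scaling (0.0461), a minimum mean of 1 CPM (0.0287) and halved counts, and fits without DMSO replicate 3 (0.0371), alectinib replicate 1 (0.0473) or combination replicate 2 (0.0205). Over all 24 alternatives, with those that did not call it, the adjusted p ran from 0.0166 to 0.201.

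FN1 (ENSG00000115414, chromosome 2, 215360440 to 215436172, minus strand) codes for fibronectin, the glycoprotein that links integrins to the collagen matrix. Its levels were 29.5, 26.5, 29.3 and 31.5 CPM in DMSO, 20.3, 23.3, 24.3 and 31.6 in indisulam, 30.7, 31.2, 33.9 and 34.0 in alectinib and 21.7, 18.8, 19.6 and 19.1 in the combination. The combination was below DMSO and alectinib in every library, and indisulam replicate 4 alone reached the DMSO range among its group. Alectinib gave 0.15 ± 0.10 (adjusted p = 0.295) and indisulam -0.23 ± 0.10 (adjusted p = 0.061), neither of which passed. Without indisulam replicate 4 the indisulam value was -0.37 and passed (adjusted p = 0.00144). It also passed without DMSO replicate 2 (-0.27, adjusted p = 0.0444) and with no expression filter (-0.23, adjusted p = 0.0366).

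In the combination FN1 fell with a log2 change of -0.56 ± 0.10 against DMSO (adjusted p = 3.78e-05) and one of -0.71 ± 0.10 against alectinib (adjusted p = 1.84e-06). Against indisulam it was lower, at -0.33 ± 0.10 (adjusted p = 0.0112), a call lost without indisulam replicate 4 (-0.20, adjusted p = 0.0764). The single-drug changes summed to -0.08, and the interaction, the deviation from that sum, was -0.48 ± 0.14 (adjusted p = 0.0243). FN1 was the only 1 of the 8 tested members with a called interaction, where 13.5% of all tested genes were called (6.63% negative and 6.85% positive). The interaction did not pass without DMSO replicate 2 (adjusted p = 0.0604), indisulam replicate 4 (0.0508) or alectinib replicate 4 (0.0569).

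PDGFRB (ENSG00000113721, chromosome 5, 150113837 to 150155872, minus strand) codes for the PDGF receptor beta, a receptor tyrosine kinase of pericytes and fibroblasts that is activated by PDGF-B and PDGF-D. DMSO replicates 1 to 4 had 26.9, 23.7, 23.7 and 23.7 CPM, indisulam 18.6, 17.6, 17.0 and 14.5, alectinib 13.8, 16.3, 18.8 and 18.6, and the combination 10.1, 10.9, 7.96 and 7.58. The single-drug groups overlapped each other, below all DMSO libraries and above all combination libraries. PDGFRB fell with a log2 change of -0.53 ± 0.11 in indisulam (adjusted p = 0.00049), one of -0.54 ± 0.11 in alectinib (adjusted p = 0.00144) and one of -1.42 ± 0.12 in the combination (adjusted p = 3.02e-10), where 37.3% of the DMSO level was left. The 2 single drugs differed by 0.01 ± 0.12, with an approximate 95% interval of -0.22 to 0.23. Adding the second drug lowered PDGFRB further, with a log2 change of -0.89 ± 0.12 against indisulam (adjusted p = 2.19e-06) and one of -0.88 ± 0.12 against alectinib (adjusted p = 8.2e-07). The sum of the single-drug changes was -1.07, and the interaction of -0.35 ± 0.16 did not pass (adjusted p = 0.164, unadjusted p = 0.0415). With the promoter shown above, PDGFRB was the receptor among the members.

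VIM (ENSG00000026025, chromosome 10, 17228259 to 17237593, plus strand) codes for vimentin, the intermediate filament protein of mesenchymal cells, which neuroblasts and many cultured cells also make. It had 92.1, 88.5, 94.2 and 92.7 CPM in DMSO, 69.8, 77.8, 74.3 and 83.5 in indisulam, 76.6, 69.9, 65.9 and 68.1 in alectinib and 57.0, 66.8, 60.9 and 59.1 in the combination. All treated libraries were below all DMSO libraries. The changes were smaller than those of LUM and PDGFRB, at -0.27 ± 0.07 (adjusted p = 0.0022), -0.39 ± 0.07 (adjusted p = 0.000204) and -0.59 ± 0.07 (adjusted p = 6.45e-08) in indisulam, alectinib and combination. The last left 66.3% of the DMSO level. The combination was below indisulam, with a log2 difference of -0.32 ± 0.07 (adjusted p = 0.000496) and below alectinib, with one of -0.20 ± 0.07 (adjusted p = 0.0137). The difference from alectinib was lost without alectinib replicate 1 (adjusted p = 0.065). It was also lost when only the groups compared were fitted (-0.17, adjusted p = 0.0712). The interaction was 0.06 ± 0.10 (adjusted p = 0.725).

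VIM shares 24.4% of its exonic bases with VIM-AS1 and AL133415.1 on the other strand, and whether strand was used in counting is not given in the sources used here. VIM-AS1 had between 3 and 51 counts in a library, beside 3245 to 7200 for VIM, and AL133415.1 had 0. YAP1 shares 9.97% of its exonic bases with AP000942.2 on the other strand, which had 0 counts in every library.

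YAP1 (ENSG00000137693, chromosome 11, 102110461 to 102233423, plus strand) codes for the coactivator at the end of the Hippo pathway, which enters the nucleus and binds TEAD factors when the LATS kinases are inactive. The 4 DMSO libraries had 1.08, 1.46, 1.01 and 1.72 CPM, beside 0.967, 1.05, 0.809 and 1.61 in indisulam, 0.968, 1.16, 0.993 and 1.23 in alectinib and 0.948, 1.04, 0.833 and 0.559 in the combination. The groups overlapped in every comparison. YAP1 fell in the combination with a log2 change of -0.64 ± 0.25 (adjusted p = 0.0296) and was at -0.25 ± 0.24 and -0.28 ± 0.24 in indisulam and alectinib, which did not pass (adjusted p = 0.425 and 0.447). The combination call was lost under upper-quartile scaling (-0.52, adjusted p = 0.073). It was also lost without DMSO replicate 2 or 4 or combination replicate 3 or 4 (adjusted p = 0.0688, 0.121, 0.0543 and 0.107).

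**Figure D3:**
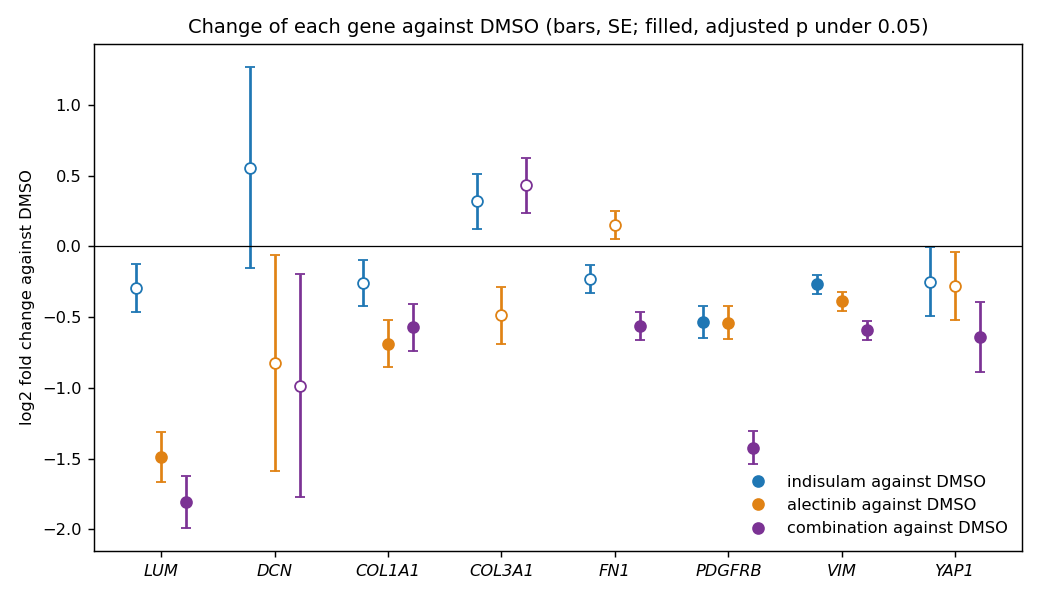
Log2 fold change of each of the 8 tested genes against DMSO (points) with its SE (bars) for indisulam, alectinib and the combination; filled points had an adjusted p under 0.05. LUM falls in alectinib and the combination, PDGFRB falls furthest in the combination, and the bars of DCN, with 131 counts in all, span more than 1 log2 unit.

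Between drug groups, the combination was compared with each single drug and the single drugs with each other. Against indisulam 4 of 8 members were lower in the combination (LUM, FN1, PDGFRB and VIM), where 20.1% of all tested genes were lower, 18.9% were higher and 39% changed. Against alectinib 3 were lower (FN1, PDGFRB and VIM) and COL3A1 was higher, where 29% of all genes were lower, 26.5% were higher and 55.5% changed. Between indisulam and alectinib, LUM, COL1A1 and COL3A1 were higher and FN1 was lower in indisulam, where 23.7% of all genes were higher and 25.6% lower (49.3% in all). FN1 was at -0.38 ± 0.10 in that comparison (adjusted p = 0.00264). The groups did not overlap for 3 members in each of these comparisons, beside 33.2%, 48.8% and 45.9% of all tested genes in the same order.

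**Figure D4:**
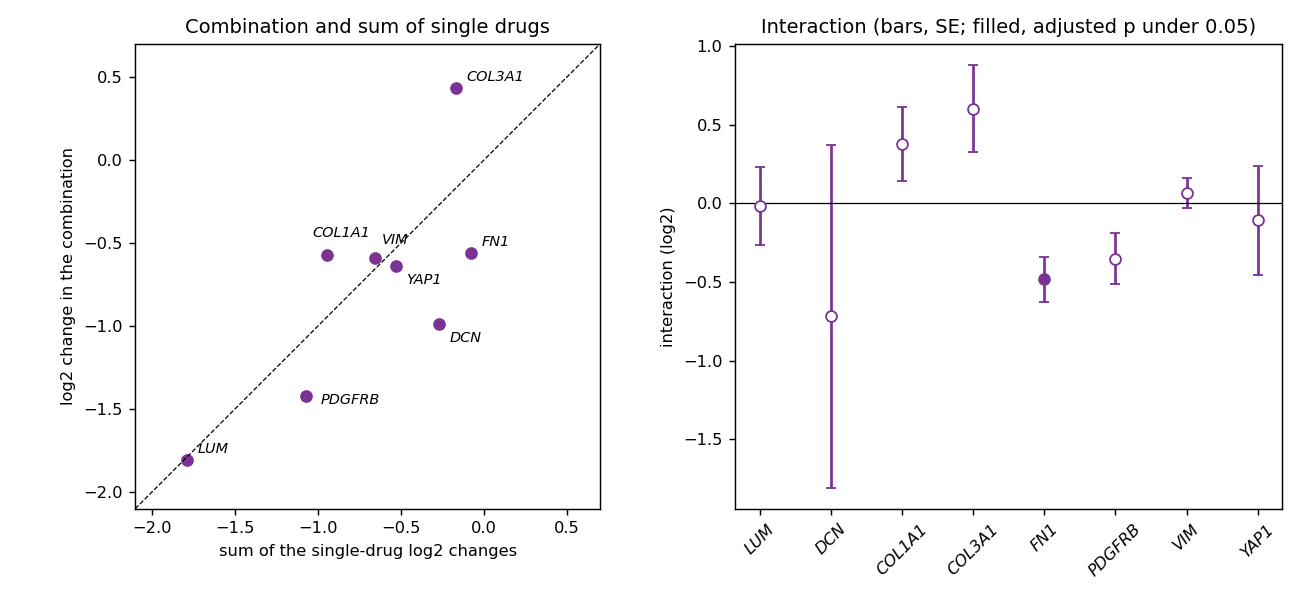
Left, log2 change in the combination against the sum of the single-drug changes for the 8 tested genes, with a dashed line where they are equal; right, the interaction with its SE (bars), filled where the adjusted p was under 0.05. LUM and VIM lie near the line, FN1 and PDGFRB below it and COL3A1 above it, and the interaction of FN1 is the filled point.

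For the other members the interaction was 0.38 ± 0.23 for COL1A1 (adjusted p = 0.323), 0.60 ± 0.28 for COL3A1 (adjusted p = 0.159), -0.11 ± 0.35 for YAP1 (adjusted p = 0.886) and -0.72 ± 1.09 for DCN (adjusted p = 0.732). None of these passed. The approximate 95% intervals of COL1A1 (-0.08 to 0.83) and COL3A1 (0.06 to 1.14) hold departures of the size seen in FN1 only in the positive direction, opposite to FN1. Those of YAP1 (-0.79 to 0.57) and DCN (-2.86 to 1.43) hold them in both directions. Mitochondrially encoded genes took 5.23 to 5.77% of counts in DMSO and 6.27 to 6.70% in the groups that received indisulam. They took 5.13 to 5.39% in alectinib replicates 2 to 4 and 6.73% in alectinib replicate 1, and their part in these results was not tested.

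Genes that act together with the members were described from lists chosen with earlier results of these data known, so their counts are descriptions. Every list below is to be read beside the shares of all tested genes. With indisulam 24.8% of all genes fell and 23% rose, with alectinib 12.3% and 9.99%, and in the combination 30.6% and 29.7%. The genes named had the lowest p of their list in the combination, with adjusted p at most 0.0281 there, and values after a gene are log2 changes against DMSO with their SE. Among 31 tested collagen genes outside the members, 13 fell and 5 rose with indisulam, 3 fell and 4 rose with alectinib, and 18 fell and 3 rose in the combination, with a median of -0.71 in the last. With alectinib RLE scaling gave 5 lower and 4 higher. COL5A1, which starts the assembly of type I fibrils, fell from 223 ± 23.8 CPM in DMSO to 92.0 ± 7.78 in the combination (-1.28 ± 0.09). COL6A2 of the microfibrillar type VI collagen fell with a log2 change of -1.27 ± 0.11, and COL4A2 of the basement membrane with one of -0.93 ± 0.09. COL11A2, a minor fibrillar chain known from cartilage, rose from 2.19 ± 0.519 to 21.0 ± 2.34 CPM (3.26 ± 0.16). Its single-drug changes were 1.20 ± 0.16 in indisulam and 1.76 ± 0.16 in alectinib.

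Of the enzymes and chaperones that modify, fold and cross-link collagen, more were called lower than higher. Among 32 tested, 16 fell with indisulam, 11 with alectinib and 22 in the combination, beside 24.8%, 12.3% and 30.6% of all tested genes. In the same order 4, 1 and 3 rose, and the medians were -0.30, -0.16 and -0.58. The collagen chaperone FKBP10 fell with a log2 change of -1.48 ± 0.11 in the combination, and the prolyl 3-hydroxylase P3H1 with one of -1.45 ± 0.11. LOX, the lysyl oxidase that cross-links fibrils, was at 19.9 ± 2.17 CPM with DMSO, 10.3 ± 1.03 with indisulam, 11.6 ± 1.01 with alectinib and 6.83 ± 1.24 with both, the last a log2 change of -1.54 ± 0.12. The collagen galactosyltransferase COLGALT1 fell with a log2 change of -0.43 ± 0.09 with alectinib and one of -1.08 ± 0.09 with both drugs, while its value of -0.10 ± 0.09 with indisulam missed the threshold. P3H1 fell with a log2 change of -1.38 ± 0.11 with indisulam and one of -0.41 ± 0.11 with alectinib.

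Among 11 tested small leucine-rich proteoglycans, the family of LUM and DCN, 2 rose and 1 fell with indisulam. With alectinib edgeR's test called 0, with 1 gene at an unadjusted p below 0.05, FMOD at -0.27 ± 0.10 (adjusted p = 0.0583), and DESeq2 called 1 lower, as did edgeR with no filter, with only the groups compared and without alectinib replicate 2 or combination replicate 1, 3 or 4. In the combination TSKU rose (0.57 ± 0.11) and FMOD fell (-0.26 ± 0.10, adjusted p = 0.0281). The FMOD call was lost under upper-quartile scaling, with DESeq2, with a minimum mean of 1 CPM and without DMSO replicate 4 or combination replicate 1 or 3. Of 27 tested matrix glycoproteins other than FN1, 10 fell and 2 rose with indisulam, 8 fell and 4 rose with alectinib, and 16 fell and 6 rose in the combination. The laminin chains LAMB1 and LAMA1 fell with log2 changes of -1.36 ± 0.06 and -1.78 ± 0.10 in the combination, and FBLN2 with one of -1.59 ± 0.11. NID2, a basement membrane nidogen, rose by 2.13 ± 0.14.

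The receptors that bind fibronectin, collagen or related ligands numbered 20 tested, of which 10 fell and 2 rose with indisulam, 7 fell and 2 rose with alectinib, and 14 fell and 3 rose in the combination. ITGA4, the alpha chain of an integrin that binds fibronectin, was at 59.5 ± 5.32 CPM with DMSO, 20.4 ± 2.76 with indisulam, 34.5 ± 2.68 with alectinib and 8.75 ± 2.56 with both, where it fell with a log2 change of -2.77 ± 0.14. ITGA9 fell with a log2 change of -2.15 ± 0.22 in the combination and CD44, a hyaluronan receptor, with one of -1.12 ± 0.10. ITGB5 rose from 0.74 ± 0.106 to 3.98 ± 0.738 CPM (2.42 ± 0.20).

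Around PDGFRB, 5 of 6 PDGF genes were tested. PDGFRA, the alpha receptor, fell in indisulam (-0.25 ± 0.08), alectinib (-0.30 ± 0.08) and the combination (-0.76 ± 0.08). The receptor-like gene PDGFRL fell in alectinib (-1.02 ± 0.25) and the combination (-1.23 ± 0.26), and the ligand PDGFC rose in the combination (0.88 ± 0.17). PDGFRA was the only gene of this list called with indisulam (adjusted p = 0.011). That call was lost without indisulam replicate 3, and under upper-quartile scaling, which called 1 gene higher and 0 lower.

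The Hippo genes around YAP1 were divided. Of 22 tested kinases, adaptors and TEAD factors, 9 rose and 4 fell with indisulam, 2 rose and 2 fell with alectinib, and 10 rose and 6 fell in the combination. TEAD1 was at 368 ± 18.6 CPM in DMSO and fell to 241 ± 12.7 in the combination (-0.61 ± 0.06), and TEAD4 fell with a log2 change of -1.54 ± 0.13. The Hippo kinase gene STK3 rose by 1.00 ± 0.10 and AMOT, which binds YAP1, fell with a log2 change of -0.74 ± 0.08. Of 19 tested YAP1 target genes, 5 rose and 3 fell with indisulam, 3 rose and 3 fell with alectinib, and 9 rose and 5 fell in the combination, with medians of 0.16, 0.12 and 0.49. AMOTL2 and LATS2 are in both of these lists, so their counts are not separate observations. They were the 2 Hippo genes that rose with alectinib and were among the 3 targets that rose there. The target TGFB2 is also among the TGF-beta genes below. GADD45A, known also as a p53 and stress gene, rose from 57.4 ± 5.43 to 309 ± 51.4 CPM in the combination, and AMOTL2 rose by 0.74 ± 0.10. ARHGEF17 fell with a log2 change of -1.36 ± 0.08 and ASAP1 with one of -0.92 ± 0.08. In alectinib, upper-quartile scaling gave 3 targets higher and 0 lower, and 5 Hippo genes higher and 1 lower. Without DMSO replicate 2 only 1 target was called there, and 2 or 3 were called without DMSO replicate 1 or 3 or alectinib replicate 3 or 4.

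The transcription factors linked to the mesenchymal state, PRRX1 aside, were called in 5 of 19 cases with indisulam (3 rose and 2 fell), 6 with alectinib (2 and 4) and 10 in the combination (3 and 7). Under upper-quartile scaling these splits were 6 and 2, 4 and 2, and 5 and 6. FOSL1, an AP-1 subunit, was at 0.26 ± 0.0916 CPM with DMSO, 0.948 ± 0.287 with indisulam, 0.89 ± 0.145 with alectinib and 13.6 ± 4.51 with both, where it rose by 5.70 ± 0.29. PRRX2, the paralog of PRRX1, was at 26.7 ± 3.55 CPM in DMSO and fell to 13.2 ± 1.80 in the combination (-1.01 ± 0.15). AEBP1 fell with a log2 change of -1.40 ± 0.10 and SMAD3, which is also in the next list, with one of -0.44 ± 0.06. Of 17 tested genes of TGF-beta signalling, which induces collagen and fibronectin in fibroblasts, 4 rose and 3 fell with indisulam, 3 fell with alectinib, and 7 rose and 6 fell in the combination. With alectinib 1 of them was called under upper-quartile scaling or without alectinib replicate 1. LTBP1 and LTBP3, which hold latent TGF-beta in the matrix, fell with log2 changes of -1.98 ± 0.18 and -0.87 ± 0.10 in the combination, and SMAD4 rose by 0.59 ± 0.06.

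Beside VIM, 10 other intermediate filament genes were tested, of which 3 fell and 1 rose with indisulam, 4 fell with alectinib, and 6 fell and 2 rose in the combination. NES, the nestin of neural progenitors, fell with a log2 change of -0.90 ± 0.11 in the combination, LMNB1 with one of -0.59 ± 0.06 and SYNM with one of -0.48 ± 0.08. LMNA, which codes for lamins A and C, rose from 65.4 ± 6.22 to 164 ± 41.4 CPM (1.33 ± 0.12). NID2 and SYNM share 30.0% and 27.7%, PDGFRL 11.5% and LAMA1 11.1% of their exonic bases with genes on the other strand, and PDGFRA 15.8% with a gene on its own strand, so their counts are uncertain.

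**Figure D5:**
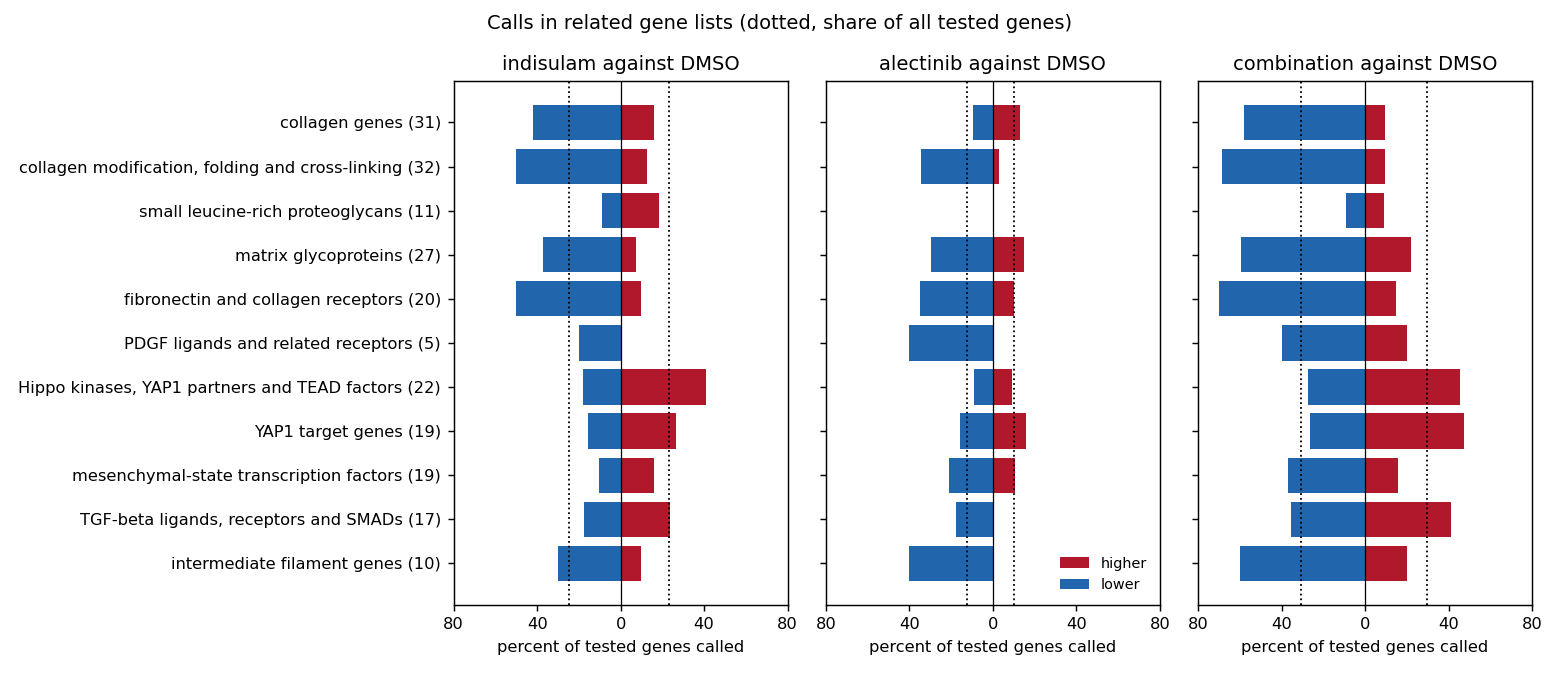
Percent of the tested genes of each related list (number tested in brackets) that were called higher (red, right) or lower (blue, left) against DMSO in indisulam, alectinib and the combination; dotted lines give the same shares over all 22433 tested genes. In the combination the lower share of the collagen, collagen-modifying, glycoprotein, receptor and intermediate filament lists lies beyond the 30.6% of all genes. Those of the PDGF (2 of 5), mesenchymal transcription factor (7 of 19) and TGF-beta (6 of 17) lists lie nearer to it. Of the TGF-beta genes 7 of 17 were higher, beside 29.7% of all genes.

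As a description, the genes whose log2 CPM followed each member most closely over the 16 libraries were looked up among protein-coding genes with a mean of at least 5 CPM, 3 for each tested member. These correlations are across libraries that share the same 4 treatments, and no p is given. Each gene named was picked as one of the highest of 10637 or 10638 candidates. How high r would become by chance from such a choice was not tested. For DCN, with 131 counts in all, r rests on few counts. PDGFRB was followed by MCAM (Pearson r = 0.978), VSTM2B (0.975) and PLXND1 (0.974). FN1 was followed by GREB1L (0.976), INTS6L (0.916) and FGD6 (0.915), and LUM by SKP2 (0.96), TIMP3 (0.96) and NPR3 (0.957). For VIM they were KDELR2 (0.955), UGDH (0.946) and PCNA (0.946), and for COL3A1 CCT5 (0.905), GLOD4 (0.891) and CTNNB1 (0.888). COL1A1 was followed by ELN (0.823), ASS1 (0.813) and ARHGAP22 (0.811), YAP1 by RFXAP (0.805), TMTC1 (0.79) and ARHGAP28 (0.777), and DCN by PIGF (0.739), TMEM206 (0.732) and CGNL1 (0.729).

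Among the members themselves, VIM and PDGFRB (r = 0.818), VIM and LUM (0.818) and LUM and PDGFRB (0.779) had the highest correlations over the 16 libraries. Once each group's mean was taken off, the same pairs gave r = -0.345, -0.308 and 0.144.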

How the data were processed

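The members and the related lists were chosen with earlier results of these data known. The values deposited by the authors are whole-number counts for each gene and library, without normalisation, beside gene start, end and exonic length in bases. The submitters' processing notes name HISAT2 2.2.1, featureCounts 2.0.1, Trimmomatic 0.39 and FastQC 0.11.9 with GRCh38. No setting for strand or read pairs is given in the sources used here. Among the deposited counts 33824 values were 2 and 28101 were 1, so both reads of a pair may have been counted, and intervals from counts cover counting error only. Coordinates of all 10 members were equal to those of GENCODE 29. The combination columns spell the library name slightly differently from the labels and were matched as the only columns that name both drugs.

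Counts were filtered by edgeR 4.0.16 (filterByExpr by group, 22433 genes left), scaled by TMM and fitted in R 4.3.3 with the quasi-likelihood model, 1 mean per treatment over all 16 libraries (12 residual degrees of freedom). The 7 comparisons were adjusted over all tested genes by Benjamini-Hochberg, and tests were two-sided. Each SE was the size of the log2 change over the square root of F. The fit was tested on simulated data. Libraries of a group differed beyond sampling noise (chi-square per degree of freedom 9.41 to 37.5 for each pair). Alternatives were other scalings, DESeq2 1.42.0, other filters, smaller fits, a replicate block and leaving out each library. All 10 members are named, and from each list at most the 4 genes with the lowest p in the combination against DMSO that were called; the genes named for their correlation are the 3 highest per member.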

Additional observations from a re-analysis of the deposited data

Results flagged for a closer look

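FN1 had the only called interaction among the members, at -0.48 on the log2 scale, so that the change with alectinib differed between cells with and without indisulam. That is 1 of 8 tested members, where 13.5% of all tested genes were called. The call was lost without DMSO replicate 2, indisulam replicate 4 or alectinib replicate 4.

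In 37 groups of 4 libraries (a gene in a treatment) the highest and the lowest library were compared with the rest, and 3 stood apart by Dixon's 95% limit, where chance flags about 1 in 20. LUM in DMSO replicate 2 was at 3.09 CPM, with the other DMSO libraries at 3.61 to 3.71. PDGFRB in DMSO replicate 1 was at 26.9 CPM, with the others at 23.7. PRRX1 in indisulam replicate 4 was at 0.0161 CPM, which is 1 count. With 0 counts in the other libraries of that group, any count would have been flagged, so this flag carries no information.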

How the results depend on the processing

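The count of called members moved by at most 1 under each setting other than leaving out a library, and all calls kept their direction. Leaving out 1 library at a time gave 2 to 3 called members in indisulam against DMSO, 4 in alectinib, 5 to 7 in the combination, 3 to 5 for the combination against indisulam and against alectinib, 3 to 4 between the single drugs, and 0 to 1 for the interaction. Over the 56 member values and 1318 alternative values, 1262 kept their direction and side of the threshold, 15 lost the call, 16 gained it and 25 changed sign; none of the 25 was called. The sign changes under other settings were PDGFRB between single drugs with a mean of at least 1 CPM (-0.0166) and with the replicate block (-0.00180), and the LUM interaction under RLE scaling (0.00081) and DESeq2 (0.00059). Without 1 library, ranges that crossed 0 were -0.0814 to 0.0759 for PDGFRB and -0.20 to 0.16 for YAP1 between single drugs, -0.253 to 0.0822 for the LUM and -0.27 to 0.13 for the YAP1 interaction. They were -1.80 to 0.31 for DCN in the combination against alectinib and -0.0045 to 0.23 for COL3A1 against indisulam. Upper-quartile scaling moved the median of all genes by 0.12 in the combination against DMSO. The replicate block added FN1 in indisulam (-0.24, adjusted p = 0.0347) and COL3A1 in the combination (0.43, adjusted p = 0.0484), so 3 and 7 members were called in place of 2 and 6. Same-numbered libraries of different groups deviated together with r from -0.406 to 0.615 (median 0.152 over 24 pairs), so the numbers were not taken as pairs. Halving the counts, chosen after seeing the data, added COL3A1 in the combination (0.45, adjusted p = 0.0423). Of 792 alternative counts for the related lists, 27 moved by over 1.5 times or to or from 0. An example is 12 in place of 7 called collagen genes in alectinib when only its libraries and DMSO were fitted. Others were changes by a single gene, such as 1 in place of 0 called proteoglycans in alectinib. COL1A2, PRRX1 and DCN were limited by depth.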
